A study of Homo sapiens with 4 samples.

Results

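A set of 10 genes of prostaglandin synthesis, signalling and breakdown was followed in the established human line MIA PaCa-2, which came from a carcinoma of the pancreas. The 10 were chosen by name as PTGS1, PTGS2, PTGES, PTGES2, PTGES3, PTGER2, PTGER4, HPGD, PLA2G4A and PTGR1, 10 of the 18665 genes that the array's annotation names, and all 14 of their probes among the 48803 on the array are described. The IL-1β group held 2 samples of cells given 2 ng/ml of this inflammatory cytokine for 36 h, and the control group held 2 samples of untreated cells of the same line. All cells were grown in high-glucose DMEM with fetal bovine serum. Each sample was hybridised to 1 Illumina WG-6 v3 bead chip array, and nothing in the labels states that samples are separate cultures. Every p-value therefore measures spread that may be technical, between these samples only.

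Prostaglandins are lipid mediators made from arachidonic acid. Cytosolic phospholipase A2, the product of PLA2G4A, frees arachidonic acid from membranes, and the cyclooxygenases encoded by PTGS1 and PTGS2 turn it into prostaglandin H2. Terminal synthases, among them those encoded by PTGES and PTGES2, then make prostaglandin E2, which acts on cells through receptors such as EP2 (PTGER2) and EP4 (PTGER4), and HPGD and PTGR1 encode enzymes of its breakdown. PTGS2 and PTGES are known as the inducible members of the pathway, and in many cell types IL-1 raises both.

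After IL-1β, PTGES was the member with the largest difference, 1.51-fold above control, while PTGS2, the textbook target of IL-1, was not detected on any array. Of the 14 probes, 6 were detected on all 4 arrays and 8 on none, where detected means a detection p under 0.01. The detected probes read 4 genes, PTGES, PTGES2, PTGES3 and PTGR1. The 6 genes not detected were both cyclooxygenases, PLA2G4A, both receptors and HPGD. Over the whole array 26.9% of probes were detected on at least 2 arrays, which is the condition for a test, and 71.3% were detected on none. In RNA of whole cultures, fewer cells of a type and less RNA per cell cannot be told apart.

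**Figure D1:**
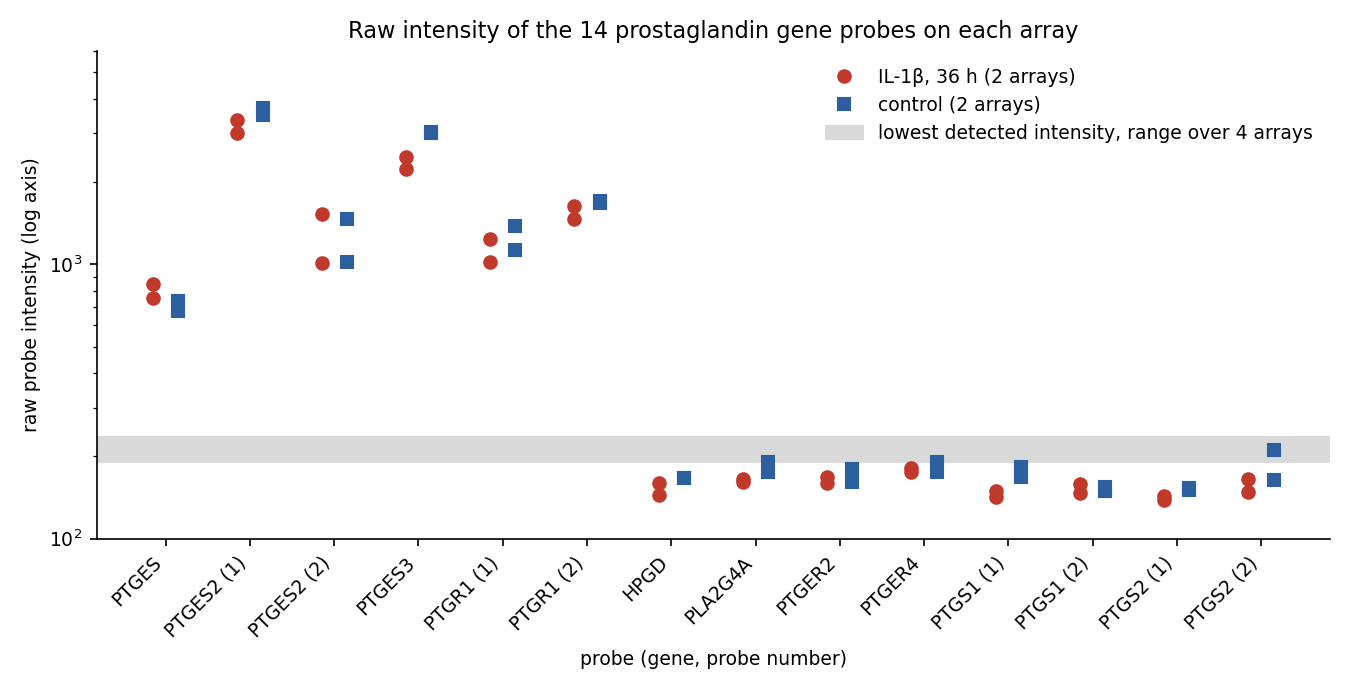
Raw intensity (log axis) of each of the 14 probes on the 2 IL-1β arrays (circles) and the 2 control arrays (squares); the grey band spans the lowest intensity counted as detected, 190 to 234 over the 4 arrays. The probes of PTGES, PTGES2, PTGES3 and PTGR1 lie far above the band, and the other 8 lie in or below it.

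The stretches of genome just before the start of PTGS2, the known IL-1 target, and of PTGES, the member that differed most, are shown because their signals stand so differently on these arrays. Both are 250 bases long and were taken from RefSeq on build GRCh38.p14, reading 5′ to 3′ towards the gene, on the minus strand, at chr1:186680424-186680673 for PTGS2 and chr9:129753043-129753292 for PTGES. Capitals mark matches to the motifs listed after them.
PTGS2: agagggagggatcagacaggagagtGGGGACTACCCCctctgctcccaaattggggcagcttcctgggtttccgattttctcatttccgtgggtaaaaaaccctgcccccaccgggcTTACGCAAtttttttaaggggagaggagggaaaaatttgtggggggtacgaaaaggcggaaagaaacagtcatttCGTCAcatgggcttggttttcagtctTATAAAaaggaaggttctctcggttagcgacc
PTGES: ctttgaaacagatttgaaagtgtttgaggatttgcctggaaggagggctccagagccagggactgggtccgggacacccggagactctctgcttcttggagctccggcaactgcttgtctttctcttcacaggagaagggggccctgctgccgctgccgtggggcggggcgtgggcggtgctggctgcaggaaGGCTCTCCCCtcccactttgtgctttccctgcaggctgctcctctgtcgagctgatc
Motifs were searched on both strands as GGG, then NNNNN, then CC for NF-κB, TTNNGNAA for C/EBP, CGTCA for a CRE half-site, TGANTCA for AP-1 and TATAAA for the TATA box, where N is any base. In the PTGS2 stretch, 4 overlapping NF-κB matches fell between bases 225 and 214 before the start, C/EBP matches on both strands between 133 and 126, a CRE half-site between 58 and 54, and a TATA box between 32 and 27. In the PTGES stretch the search found 1 match, to NF-κB on the opposite strand, between bases 57 and 48. These motifs are loose: of the 35116 RefSeq windows of this length, 54.4% hold the NF-κB letters, 33.2% the C/EBP letters, 21.2% the CRE half-site, 6.57% the AP-1 letters and 10.7% the TATA box. A match describes the sequence only. On the same assembly PTGS2 and PLA2G4A are close neighbours on chromosome 1, with 1 annotated gene and 0 protein-coding genes between them.

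The question put to these arrays is which messengers differ after IL-1β, and 0 of 13152 tested probes (0%) passed an adjusted p of 0.05 in limma, while 18.5% had an unadjusted p under 0.05. Raw intensities averaged 482 and 449 on the IL-1β arrays and 527 and 549 on the control arrays, and the median tested probe had a raw IL-1β to control ratio of 0.839, so raw values are lower in the IL-1β group for most probes. Values given as log2 are after background correction and quantile normalization with neqc, which removes this offset. Of the tested probes at an unadjusted p under 0.05, the share lower with IL-1β was 50.1% with quantile normalization, against 74.4% in the values of the authors' series matrix. With each array scaled to its median over all probes the share was 94.3%. This scaling moved the median of all tested probes by -0.22 on the log2 scale. Of the 6 epithelial markers listed, KRT8, KRT18 and KRT19 were detected and CDH1, EPCAM and KRT7 were not detected on any array, and 0 of 6 acinar and islet markers were detected. Of the leukocyte markers PTPRC and CD3E were not detected on any array, while CD68, a lysosomal protein, was detected on all 4 with its probes at 0.31, 0.51 and 0.16 on the log2 scale. CD14 was detected on 1 array of each group, at -0.08. Of 6 fibroblast markers COL1A2 was detected, with its probes at -0.24 and -0.31, and of 4 endothelial markers CDH5 and, on 1 array, PECAM1. The summed raw intensity of the leukocyte list was 5134 to 5505 in the IL-1β group and 5324 to 5792 in the control group, and its part in the results was not tested.

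PLA2G4A, whose product frees arachidonic acid, was not detected on any array and had raw intensities of 166 and 161 with IL-1β, against 190.1 and 175 in controls. They are lower without overlap before normalization, as were 74.8% of tested probes, a share that leaves out undetected probes such as this one. They do overlap after normalization, with log2 values of 4.93 and 5.09 with IL-1β, against 5.59 and 4.95 in controls. The lowest detection p of PLA2G4A was 0.0277, on control replicate 1.

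PTGS2 encodes cyclooxygenase 2, the inducible enzyme whose promoter stretch is printed above. Its probe ILMN_1677511 had raw intensities of 138 and 143 on the IL-1β arrays, against 150.5 and 153 on the control arrays. These are lower without overlap before normalization, as were 74.8% of tested probes, a share that leaves out undetected probes such as this one. After normalization the groups of this probe overlap. The probe ILMN_2054297 had raw intensities of 148 and 165 with IL-1β, against 164 and 211 in controls. The lowest raw intensity that counts as detected was 207 and 190.1 on the IL-1β arrays, and 214 and 234 on the control arrays, so both probes stayed below it everywhere. The background level, taken as the median raw intensity of probes with a detection p near 0.5, was 158 and 147 on the IL-1β arrays and 156 and 165 on the control arrays. The PTGS2 values lie around that level.

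The detection p-values of this file are whole multiples of 1/759, and each is read here as the share of 759 negative-control probes on the array that are at least as bright. For ILMN_1677511 that was 745 and 504 negative controls on the IL-1β arrays, against 533 and 642 on the control arrays. For ILMN_2054297 it was 612 and 50 on the IL-1β arrays, against 181 and 15 on the control arrays, and the 15 belong to the detection p of 0.0198 on control replicate 2, the lowest of any PTGS2 value. The brightest PTGS2 reading therefore came from an untreated sample. No fold is given for PTGS2, since both groups are below the detection limit. Without the filter on dim probes the 2 probes had log2 differences of -0.03 and -0.41, with unadjusted p = 0.834 and 0.22 and adjusted p = 0.97 and 0.744 in limma. The value of ILMN_2054297 rests on control replicate 2 and was -0.01 without that array. An increase in PTGS2 messenger at 36 h was not detectable on these arrays, and a level under the detection limit or an earlier, passing increase cannot be read from them.

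PTGS1 encodes cyclooxygenase 1, known as the constitutive enzyme. Its probe for the transcript NM_000962 (ILMN_1665100) had raw intensities of 149 and 142 with IL-1β, against 168 and 182 in controls. These do not overlap, and the log2 values of 4.65 and 4.69 with IL-1β lie below those of 5.02 and 5.11 in controls. Of tested probes, 74.8% were lower without overlap before normalization and 25.2% after it. These shares cover only probes that passed the detection filter, and this probe did not. It was not detected on any array, with detection p-values of 0.105 or more. Without the filter its adjusted p was 0.499 (unadjusted p = 0.0179 in limma). The probe for NM_080591 (ILMN_2339835) had 159 and 147 with IL-1β, against 155 and 149 in controls, and its raw groups overlap. The log2 difference was -0.40 for NM_000962 and 0.13 for NM_080591, so the 2 probes of the gene had opposite signs. The value for NM_080591 was 0.04 without control replicate 2.

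PTGES encodes microsomal prostaglandin E synthase 1, the terminal synthase that is known to be induced together with PTGS2. Its probe (ILMN_1713829) had raw intensities of 849.5 and 753 on the IL-1β arrays, against 678 and 737 on the control arrays. It was thus brighter with IL-1β even before normalization, which only 1.2% of tested probes were without overlap between the groups. After normalization its log2 intensity was 9.58 and 9.53 with IL-1β, against 8.96 and 8.97 in controls, and the gap between the groups, 0.56, was many times the spread within either. The log2 difference was 0.59 ± 0.09 (SE, 2 arrays per group), a fold of 1.51 with a 95% confidence interval of 1.29 to 1.77. The unadjusted p was 0.000937 and the adjusted p was 0.0994 in limma, so PTGES did not pass the threshold of 0.05. An adjusted p under 0.1 was reached by 0.943% of tested probes. By unadjusted p it ranked 124th of the 13152 probes tested, and of those, 1.52% were at least 1.5-fold higher with no overlap between the groups. An exact permutation test over 2 against 2 arrays cannot go below 0.333 two-sided, which is its value for PTGES.

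PTGES was also the only member in the authors' own lists. In the authors' deposited table of averages its mean intensity was 863 for IL-1β and 659.7 for control, a ratio of 1.31. These averages differ from the means of the raw intensities, 801 for IL-1β and 708 for control. In the authors' deposited table of scores it had a score of 76.1, the 29th highest of the 225 positive scores. The formula of that score was not given in the sources used here. PTGES was higher with IL-1β under all 15 alternatives tried, with log2 differences from 0.35 (median scaling over all probes, which carries the shift of -0.22) to 0.62 (without IL-1β replicate 2). It passed an adjusted p of 0.05 under 2 of them, at 0.00332 without background correction and at 0.00153 when limma fitted a variance trend robustly, and its adjusted p over all 15 ranged from 0.00153 to 0.432.

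**Figure D2:**
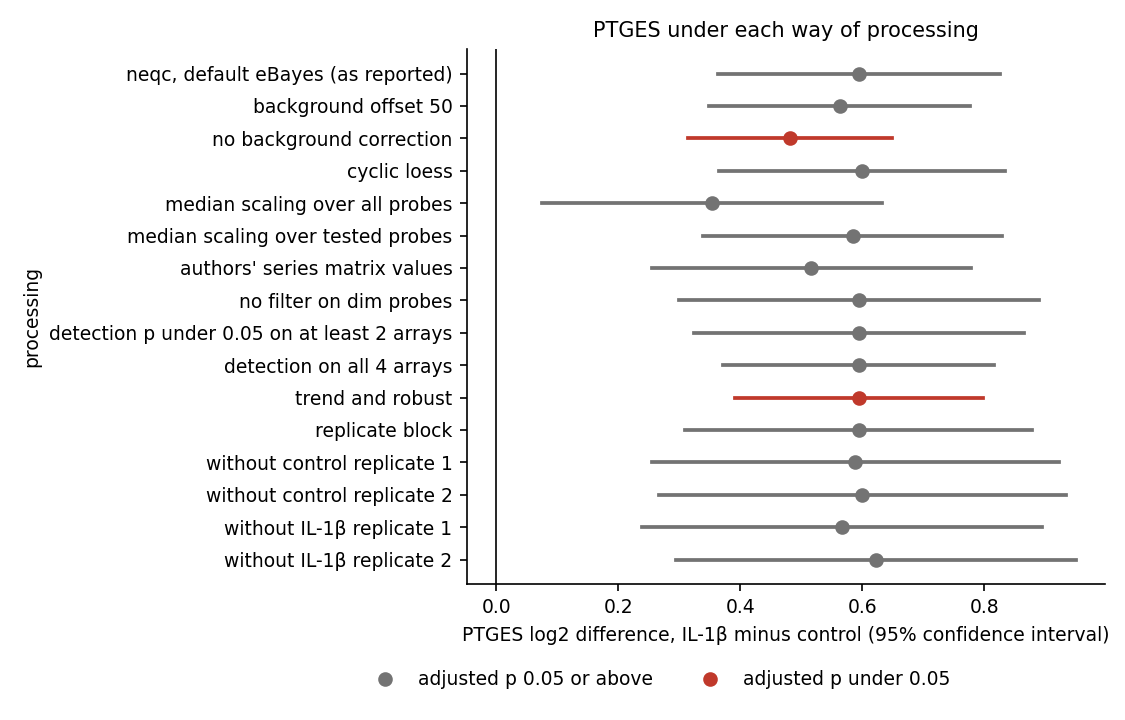
Log2 difference of PTGES, IL-1β minus control, with its 95% confidence interval (horizontal axis) under each way of processing (vertical axis). All values lie above 0, and the adjusted p is under 0.05 with no background correction and with trend and robust settings.

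The other prostaglandin E synthases, PTGES2 and PTGES3, did not pass the test. PTGES2 encodes microsomal prostaglandin E synthase 2, which is known as a constitutive enzyme. Its brighter probe (ILMN_2345015) had log2 intensities of 11.77 and 11.72 with IL-1β, against 11.68 and 11.52 in controls, a difference of 0.14 ± 0.10 with adjusted p = 0.515 in limma. It was 0.22 without control replicate 1 and 0.06 without control replicate 2. The groups do not overlap, by a gap of only 0.04, and they do overlap in the authors' series matrix values. The dimmer probe (ILMN_2345016) had raw intensities of 1519 and 1014 with IL-1β, against 1022 and 1467 in controls. Its arrays of 1 group differ by more than the groups do, and after normalization the difference was 0.37 ± 0.24 with adjusted p = 0.454. That value rests on which array is kept, since it was 0.11 without IL-1β replicate 1 and 0.13 without control replicate 1, but 0.64 without IL-1β replicate 2 and 0.62 without control replicate 2.

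PTGES3 encodes p23, a co-chaperone of Hsp90 that also has prostaglandin E synthase activity. Its raw intensity was 2221 and 2466 on the IL-1β arrays, against 3026 and 2997 on the control arrays, lower without overlap, as were 74.8% of tested probes before normalization. On the log2 scale it was 11.14 and 11.42 with IL-1β, against 11.37 and 11.29 in controls, and the groups overlap. The difference was -0.05 ± 0.13 with a fold of 0.965 (0.776 to 1.2) and adjusted p = 0.872, and its sign turned to 0.09 without IL-1β replicate 1. The upper end of that 95% interval lies below 1.29, the lower end for PTGES.

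The difference of PTGES can be set against that of the other detected members within each array, which removes any factor common to an array. Relative to PTGES3, and centred on the control mean, PTGES stood at 0.81 and 0.48 with IL-1β, against -0.04 and 0.04 in controls. Relative to the brighter PTGES2 probe it stood at 0.45 and 0.45 with IL-1β, against -0.08 and 0.08 in controls. The groups do not overlap in either, nor do they against either probe of PTGR1, where the shifts were 0.40 and 0.40. Against the dimmer PTGES2 probe the groups overlap and the shift was 0.22. On raw intensities, with no background correction or normalization, the shifts were 0.54 against PTGES3 and 0.36 against the brighter PTGES2 probe. PTGES was set against the others as the member with the largest difference, so a mean log2 shift above 0 was fixed by that choice. Taken singly, 50.7% of all tested probes do not overlap between the groups on the log2 scale. With 2 arrays per group these values are descriptions and carry no test beyond the smallest exact p given above.

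Among the receptors, PTGER4, which encodes EP4, came closest to detection. It had raw intensities of 180.5 and 174 with IL-1β, against 189.7 and 176 in controls, and detection p-values of 0.0382 and 0.0224 with IL-1β, against 0.0277 and 0.188 in controls. Its groups overlap. With the detection limit eased to a p of 0.05, an alternative chosen after the data were seen, it was the only further member to enter the test, at 0.13 on the log2 scale with adjusted p = 0.842 in limma. Its sign rests on single arrays, since it was 0.44 without control replicate 1 and -0.17 without control replicate 2. PTGER2, which encodes EP2, had 168 and 160 with IL-1β, against 161 and 179 in controls, and was not detected, with detection p-values from 0.137 to 0.345.

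HPGD encodes 15-hydroxyprostaglandin dehydrogenase, the enzyme of the initial step in prostaglandin breakdown. It had raw intensities of 159 and 144 with IL-1β, against 166 and 166 in controls. Its detection p-values ran from 0.187 to 0.61, so it stood inside the background on every array.

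**Figure D3:**
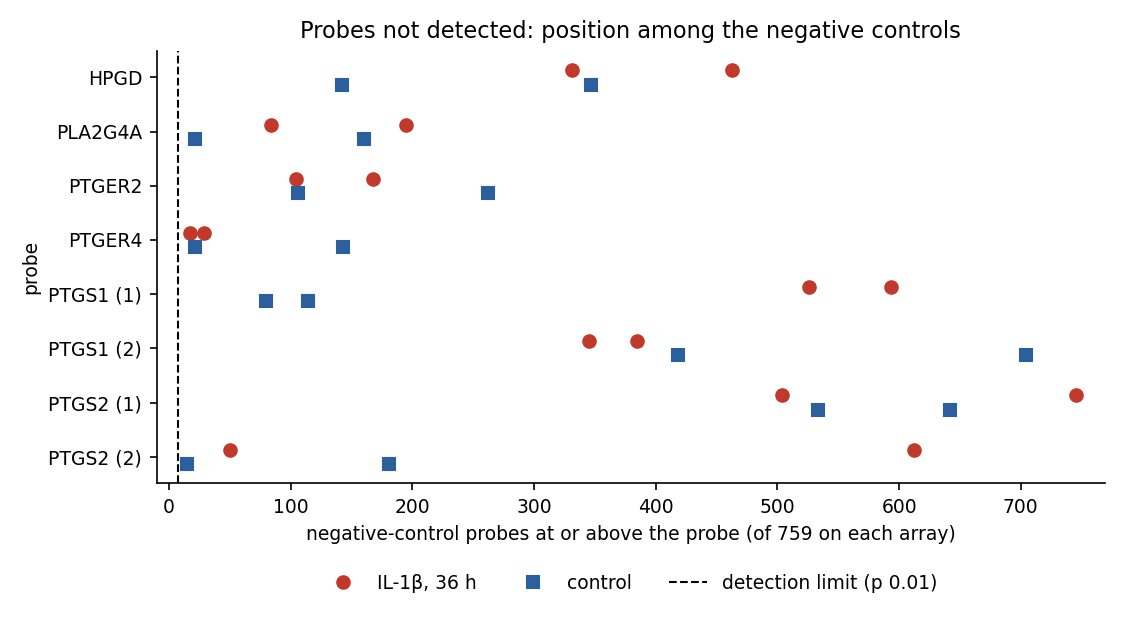
For the 8 probes that were not detected, the number of the 759 negative-control probes at or above them on each array (horizontal axis), for IL-1β (circles) and control (squares). No point lies left of the dashed detection limit, and those of PTGS2 range from 15, on a control array, to 745, on an IL-1β array.

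PTGR1 encodes prostaglandin reductase 1, which reduces the 15-keto metabolites of prostaglandins and inactivates leukotriene B4. Its brighter probe (ILMN_2225537) had log2 intensities of 10.65 and 10.61 with IL-1β, against 10.48 and 10.38 in controls, without overlap. The difference was 0.20 ± 0.10 with adjusted p = 0.349 in limma. The other probe (ILMN_1704531) stood at 10.23 and 10.04 with IL-1β, against 9.83 and 10.06 in controls, which overlap, and differed by 0.19 ± 0.13 with adjusted p = 0.479. Neither probe passed the threshold. The value of ILMN_1704531 rests on the arrays kept, since it was 0.08 without control replicate 1 and 0.10 without IL-1β replicate 1, but 0.31 without control replicate 2 and 0.29 without IL-1β replicate 2, while that of ILMN_2225537 stayed between 0.15 and 0.25. With median scaling over all probes they were at -0.02 and -0.04, so the sign of PTGR1 depends on the scaling.

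**Figure D4:**
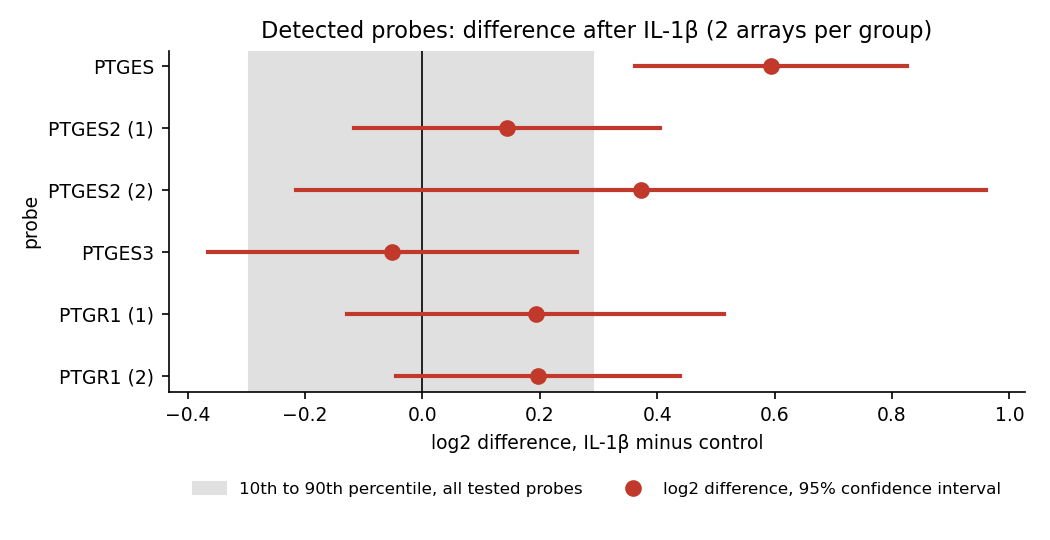
Log2 difference, IL-1β minus control, of the 6 detected probes (points) with 95% confidence intervals (bars), 2 arrays per group; the grey band is the 10th to 90th percentile of all tested probes, -0.30 to 0.29. The interval of PTGES lies above 0 (0.36 to 0.83 on the log2 scale), and the intervals of the other 5 probes include 0.

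By count, 5 of the 6 tested probes were higher with IL-1β and 1 was lower, with a median log2 difference of 0.20, against -0.0013 over all tested probes. A difference above 0 was held by 49.7% of all tested probes. The count depends on the scaling. With median scaling over all probes, PTGES (0.35) and the dimmer PTGES2 probe (0.15) were higher. The brighter PTGES2 probe (-0.08), PTGES3 (-0.27) and the PTGR1 probes (-0.04 and -0.02) were lower. Of the 6, 1 had an unadjusted p under 0.05, where 18.5% of all tested probes did, or 9.25% in the higher direction. The groups did not overlap for 3 of the 6, where that held for 50.7% of all tested probes. All 3 were higher, which 25.5% of tested probes were without overlap, and 0 were lower, which 25.2% were. With so few probes these counts are a description. The probes of PTGES2 and of PTGR1 come in pairs that read the same gene and are not independent.

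Other genes of prostanoid metabolism were mostly not detected. Of 21 listed, 20 have probes and 8 were tested with 10 probes, of which 5 were higher and 5 lower, with a median log2 difference of 0.06. The enzymes that make thromboxane and prostacyclin (TBXAS1, PTGIS) and the receptors PTGER3, PTGFR, PTGIR, PTGDR and TBXA2R were not detected on any array. None of the 10 probes passed an adjusted p of 0.05 in limma. At an unadjusted p under 0.05, which 18.5% of all tested probes had, there were 3, SLCO2A1, PTGDS and AKR1C3. Each of the 3 was detected on more arrays of the group where it was brighter after normalization, which let it into the test, so this count supports nothing. SLCO2A1, the prostaglandin uptake transporter, was detected on both IL-1β arrays and neither control array, and its raw intensities of 225 and 205 with IL-1β, against 202 and 233 in controls, overlap. After normalization it stood at 6.44 and 6.38 with IL-1β, against 5.88 and 6.14 in controls. PTGDS, the lipocalin-type prostaglandin D synthase, differed by -0.68 ± 0.24 (adjusted p = 0.235) and reached detection on 1 of the 2 IL-1β arrays. AKR1C3, an aldo-keto reductase that makes prostaglandin F2, differed by -0.77 ± 0.28 (adjusted p = 0.245) and likewise reached detection on 1 of these 2 arrays. All 3 lie close to the detection limit. Requiring detection on all 4 arrays takes these 3 out of the test, so the count of 0 under that filter says nothing of them.

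The phospholipase list, which also holds enzymes that put arachidonic acid back into membranes, had 13 tested probes, 5 higher and 8 lower, with a median of -0.14. Of these, 0 were higher and 3 lower at an unadjusted p under 0.05, where 9.25% of all tested probes were higher and 9.28% lower. ANXA1, annexin A1, known as an inhibitor of phospholipase A2, had log2 intensities of 14.08 and 14.12 with IL-1β, against 14.51 and 14.41 in controls, a difference of -0.36 ± 0.10 with adjusted p = 0.169 in limma. LPCAT3, an acyltransferase that returns arachidonic acid to phospholipids, differed by -0.31 ± 0.10 with adjusted p = 0.207. MBOAT7, another such acyltransferase, differed by 0.22 ± 0.12 with adjusted p = 0.403. In the lipoxygenase list 4 probes were tested and all 4 were higher, with a median of 0.12, and ALOX5, the enzyme that opens the leukotriene pathway, was not detected. LTB4R, a receptor of leukotriene B4, differed by 0.40 ± 0.09 with adjusted p = 0.14 in limma. Its raw intensities of 256 and 240 with IL-1β, against 242 and 259 in controls, overlap and lie close to the detection limit.

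Of Hsp90 and its co-chaperones, the partners of p23, 11 probes were tested and 9 were higher, with a median of 0.08, and 2 were higher and 1 lower at an unadjusted p under 0.05, where 9.25% of all tested probes were higher and 9.28% lower. CHORDC1, an Hsp90 co-chaperone, stood at 8.43 and 8.41 with IL-1β, against 9.29 and 9.12 in controls, a difference of -0.78 ± 0.10 with adjusted p = 0.087 in limma. PPID, a cyclophilin of the Hsp90 complex, differed by 0.50 ± 0.14 with adjusted p = 0.173. Its raw intensities, 257 and 258 with IL-1β, against 251 and 253 in controls, lie close to the detection limit. Another probe of each of these genes was not detected on any array. Of the RNA-binding proteins known to act on the PTGS2 messenger, 13 probes were tested, of which 3 were higher, 10 lower and their median -0.11. At an unadjusted p under 0.05, which 18.5% of all tested probes had, there were 0 of them. The stabilising protein ELAVL1 differed by 0.16 ± 0.10 (adjusted p = 0.465) and the destabilising protein KHSRP by -0.26 ± 0.10 (adjusted p = 0.27). Of the genes known to rise on cAMP signalling, which EP2 and EP4 raise, 5 probes were tested, 1 higher and 4 lower, with a median of -0.23. SIK1, a kinase induced by cAMP, stood at 6.74 and 6.57 with IL-1β, against 7.25 and 7.56 in controls, a difference of -0.75 ± 0.14 with adjusted p = 0.112 in limma. Its raw intensities were 243 and 215 with IL-1β, against 303 and 374 in controls, and those with IL-1β lie close to the detection limit. FOSB differed by 0.02 ± 0.11 (adjusted p = 0.947).

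Among other genes known as IL-1 targets, 12 probes were tested, of which 8 were higher and 4 lower, and their median was 0.21. Of these, 4 were higher at an unadjusted p under 0.05, where 9.25% of all tested probes were, and they read 3 genes, LCN2, CSF3 and, with 2 probes, SOD2. The list was chosen with earlier results of these data known, so this count is a description and no support. The remaining SOD2 probe was at 0.22 (unadjusted p = 0.13 in limma), and 1 CSF3 probe was not detected on any array. A second CSF3 probe among the 12 was detected on both IL-1β arrays and neither control array, and so was tested only through the IL-1β group. LCN2, an iron-binding defence protein, had the smallest p of the higher ones, at 0.82 ± 0.10 (adjusted p = 0.0786 in limma). TNFAIP3, a feedback inhibitor of NF-κB, had that of the lower ones, at -0.04 ± 0.09 (adjusted p = 0.879). Other known targets hardly differed: CXCL8 was at 0.014 and -0.003 with its probes, CXCL1 at -0.0004 and CXCL2 at -0.03, while NFKBIA was at 0.20. IL6, CCL2, CCL20, ICAM1 and MMP1 were not detected on any array, like PTGS2. The genes whose array pattern was most like that of PTGES, by the root-mean-square difference of centred log2 values over the 4 arrays, were BAIAP2L1 at 0.00846, SALL2 at 0.0136 and SOD2 at 0.0144. This ranking is over 4 arrays only and carries no test.

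**Figure D5:**
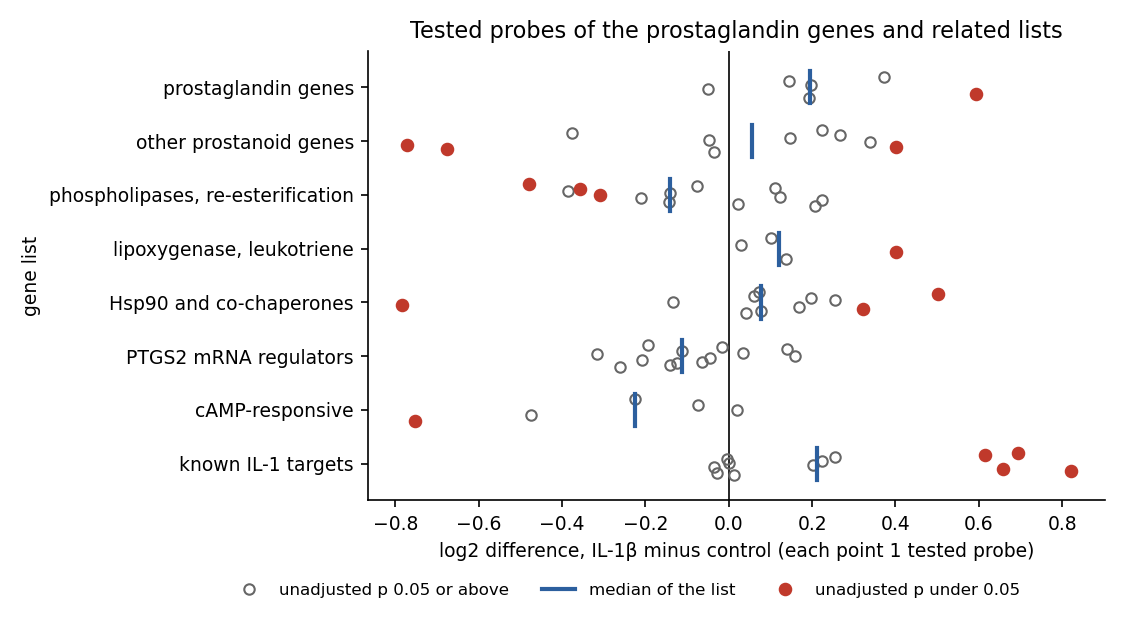
Log2 difference, IL-1β minus control, of each tested probe (points) in the prostaglandin genes and related lists (vertical axis); filled points have an unadjusted p under 0.05 and vertical lines are list medians. PTGES, at 0.59, is the filled point of the prostaglandin genes, and none of the points passes an adjusted p of 0.05 in limma.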

How the data were processed

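Total RNA of 4 samples was measured on Illumina WG-6 v3 arrays. The raw probe intensity and a detection p-value per array were deposited by the authors, per the file headers, with no background subtraction. Scanner software was not given in the sources used here. The authors' series matrix holds intensities that are, read from the values, a linear function of the raw ones (the largest residual was 0.00992), centred near 0 (column medians 8.92 to 10.9). The authors also deposited group averages of intensity and a signed score per gene, of unstated formula.

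Background correction and quantile normalization to log2 used neqc (limma 3.58.1, R 4.3.3, offset 16). The test covered the 13152 of 48803 probes whose detection p was below 0.01 on 2 or more arrays, with lmFit and eBayes, two-sided, with Benjamini-Hochberg adjustment over all of them. A fold of 1.5 was used in 1 count. The median SE was 0.111 with 5.52 degrees of freedom, and the number of arrays limits the precision. Genes came from the platform's annotation: 27578 probes have 1 gene symbol, 13 several and 21212 none there. The fit was tested on simulated data. Members and lists were chosen with earlier results of these data known. Besides all members, the lowest p per direction of each list and the 3 genes most like PTGES were named. AKR1C3, LPCAT3, CSF3, CXCL8, CXCL1, CXCL2, NFKBIA, CD68, CD14 and genes named as not detected were chosen after their values were seen. A repeated older name (ICER) was dropped from the cAMP list. Alternatives changed the background, scaling, filter, variance model and replicate block, or left out each array. The replicate numbers were not taken as pairs, since same-numbered arrays did not deviate together (r = -0.0868 over tested probes).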

Additional observations from a re-analysis of the deposited data

How the results depend on the processing

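PTGES kept its direction under all 15 alternatives. Of the prostaglandin probes 0 passed an adjusted p of 0.05, against 1 (PTGES) with no background correction and with trend and robust settings. Over all tested probes the count was 0, against 91 with an offset of 50, 622 with no background correction, 919 with median scaling over all probes, 10 with median scaling over tested probes, 66 with detection on all 4 arrays and 728 with trend and robust settings. Prostaglandin probes with an unadjusted p under 0.05 numbered 1, where 18.5% of all tested probes had one. They numbered 3 with no background correction (21.1% of all tested probes), 2 with no filter (8.76%) and 3 with trend and robust settings (21.3%). With no filter all 14 prostaglandin probes entered, and the further one was the undetected PTGS1 probe ILMN_1665100. In the prostanoid list the count at an unadjusted p under 0.05 was 3, against 0 with detection on all 4 arrays. That filter takes those 3 probes out of the test, so the 0 says nothing of them. Signs turned for PTGES2 ILMN_2345015 (-0.0778) and PTGR1 (-0.0412 and -0.0239) with median scaling over all probes, and for PTGES3 when arrays were left out (-0.191 to 0.0894). PTGS2 ILMN_1677511, which was not detected, stood at 0.18 with median scaling over tested probes. The cause was not tested in any of these. With the replicate number as a block PTGES was at 0.59 with adjusted p = 0.197, and no call changed. The chip as a block was not run, since the headers name no chip. Of 90 alternative values of the 6 detected probes, PTGES included, 84 kept both their side of the threshold and their sign. The 2 that crossed the threshold were of PTGES, and 4 turned sign. The 2 arrays per group and the signal over background limit every value, and nothing can be said of changes under the detection limit.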
